A study of Rattus norvegicus with 7 samples.

Results

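The miR-466 group consists of 10 of the 677 rat miRNAs on the array. Its members are rno-miR-466b, rno-miR-466b-1*, rno-miR-466b-2*, rno-miR-466c*, rno-miR-466d, rno-miR-672, rno-miR-32*, rno-miR-485*, rno-miR-207 and rno-miR-764, and the prefix rno (for rat) is dropped from here on. They were chosen by the measured signals, which differed widely between livers and moved together, so their spread, their co-variation and their group differences are given as a description of these arrays. All 10 were among the 175 miRNAs detected widely enough to be tested, of which miR-207 and miR-764 entered through the PFOS arrays (3 of 4) and were detected on 1 of 3 Control arrays.

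The tissue was liver of adult male Sprague-Dawley rats. PFOS rats (4 arrays) had eaten feed with potassium perfluorooctanesulfonate (PFOS), a fluorinated surfactant that persists in the body, for 28 days at 50 mg/kg of diet. Control rats (3 arrays) had eaten the control diet for the same time, and a further control array had been removed by the submitters at quality control. Each array carried Cy3-labelled total RNA of 1 rat, and array numbers are names without an order. In bulk liver RNA, fewer cells of a type and less RNA per cell cannot be told apart.

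A miRNA is cut from a hairpin precursor, and either arm of the hairpin can be loaded into an Argonaute protein, where the seed near its start pairs with messenger RNAs. In mouse, miR-466 genes lie with the miR-467 and miR-669 genes in a large cluster inside Sfmbt2, an imprinted gene active in placenta, and many of their products carry simple UG or AC repeats. miR-485 belongs to the imprinted Dlk1-Dio3 cluster, which is known for expression in embryo and brain, and miR-32 shares its seed family with miR-92a. A star marks the arm that was first taken to be the less abundant one.

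RefSeq (GRCr8) held a mature sequence for 9 of the 10 members. They are shown because the members with a UG repeat also stood apart from the rest by signal, and capitals mark the repeat. The first 4 are joined by the letters UGUGUGUG.
miR-466b: uaUGUGUGUGUGuauguccaug
miR-466d: aUGUGUGUGuauguucuuuugu
miR-672: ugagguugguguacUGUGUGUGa
miR-32*: gcaauuuagUGUGUGUGauauu
In 3 further members, all star arms of the miR-466 family, capitals mark runs that hold ACACAC.
miR-466b-1*: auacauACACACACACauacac
miR-466b-2*: auauacauACACACauacaca
miR-466c*: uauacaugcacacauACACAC
In the remaining 2 with a sequence, capitals mark CUCUCC.
miR-485*: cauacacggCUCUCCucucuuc
miR-207: cuucuccuggCUCUCCucccuuu

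The letters UGUGUGUG were found in 4 of the 693 rat mature miRNA sequences in RefSeq (0.577%), and those 4 were these members. ACACAC was in 9 of the 693 (1.30%), but a longer shared run, CACACAUACAC, was in the 3 star arms of the miR-466 family and in no other sequence. CUCUCC was in 3 (0.433%), and the run GGCUCUCCUC was in miR-485* and miR-207 alone. Both longer runs were found by taking the longest one that those same members share. Their absence from other sequences is therefore no separate support for the grouping. The shorter letters were also chosen with the members known. GGGG, a run searched as a contrast, was in 43 (6.20%) and in 0 of the 9 members. Letters were searched on the mature strand. UGUGUGUG holds the shorter GUGUGU, the reverse complement of ACACAC, so the UG and AC groups are in part complementary to each other. GUGUGU itself was in 9 (1.30%).

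The seeds, bases 2 to 8, did not carry the grouping. The 9 sequences had 9 different seeds, from AUGUGUG in miR-466b and UGUGUGU in miR-466d to GAGGUUG in miR-672 and CAAUUUA in miR-32*. In miR-672 and miR-32* the UG repeat lay behind the seed.

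Gene position followed the repeats only in part. The 4 Mir466 genes in the table spanned 32.5 kb on the minus strand, chr17:72913060-72945568 (GRCr8), and overlapped Sfmbt2, a Polycomb-related gene. All AC-repeat members come from this span, but so do the UG-repeat miR-466b and miR-466d. The mature miR-466b sequence is encoded by both Mir466b-1 and Mir466b-2. The gene of miR-672 was on chromosome X and overlapped Nexmif. Those of miR-32 and miR-207 were on chromosome 5, overlapping Tmem245 and Dnaja1, and that of miR-485 was on chromosome 6. The array's own annotation used another assembly, so these positions serve only to place the genes.

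Values below are normalised signals in array units, or their log2. The arrays correlated closely with each other, with Pearson r across tested miRNAs of 0.929 to 0.988 over the 21 array pairs, miRNAs not being independent replicates. Between 131 and 200 miRNAs were detected per array. Array PFOS 4 detected 184 and passed 8 of 8 quality metrics, and its non-member miRNAs lay at a median of 0.02 log2 from the mean of the other PFOS arrays. The hepatocyte miRNAs, with 6 of 6 on the array tested, summed to 70170 to 73499 on PFOS arrays and 71932 to 73525 on Control arrays. Most of this sum was miR-122, whose signal before scaling ran from 41918 to 84604 over the arrays. Normalization evens out such sums and the median given for PFOS 4, so neither shows that the livers were alike.

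Among the UG-repeat members, miR-466b had signals of 149, 94.7, 52.4 and 27.4 on PFOS arrays 1 to 4, against 169, 165 and 89.9 on Control arrays 1 to 3. miR-466d, from the same cluster, had 61.6, 33.0, 17.8 and 11.8 on PFOS arrays, against 71.6, 75.5 and 46.5 on Control arrays. Both were high on PFOS 1, Control 1 and Control 2, low on PFOS 3 and lowest on PFOS 4, and PFOS 1 lay within the range of the Control arrays. The X-linked miR-672 had 153, 89.8, 48.8 and 14.7 on PFOS arrays, against 159, 155 and 88.0 on Control arrays. miR-32*, the star arm of the miR-32 hairpin, had 197, 115, 65.3 and 20.7 on PFOS arrays, against 201, 204 and 114 on Control arrays. All 4, whose genes lie on 3 chromosomes, were thus low on PFOS 3 and lowest on PFOS 4, and the PFOS and Control ranges overlapped for each. On PFOS 4, miR-466d and miR-672 were not well above background.

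The AC-repeat members gave another picture. miR-466b-1* had signals of 533, 478, 270 and 76.4 on PFOS arrays, against 382, 261 and 307 on Control arrays. miR-466b-2* had 290, 277, 155 and 44.7 on PFOS arrays, against 204, 160 and 199 on Control arrays. Here PFOS 1 and PFOS 2 lay above every Control array, PFOS 3 lay near the Control arrays, and PFOS 4 lay far below all others. miR-466c* had 198, 210, 104 and 12.9 on PFOS arrays, against 122, 82.8 and 108 on Control arrays. Its signal on PFOS 4 was not well above background, so the depth of that low value is only bounded.

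The CU-rich pair and miR-764 were nearer to the AC-repeat members. miR-485* had signals of 104, 68.5, 43.0 and 11.8 on PFOS arrays, against 67.2, 51.4 and 46.4 on Control arrays. miR-207 had 94.4, 55.1, 40.7 and 11.8 on PFOS arrays, against 54.9, 40.3 and 38.1 on Control arrays. Both had PFOS 1 as the highest array and PFOS 4 as the lowest. miR-764, whose gene lies within the serotonin receptor gene Htr2c in mouse, had 81.2, 56.1, 34.9 and 11.9 on PFOS arrays, against 48.7, 32.3 and 31.0 on Control arrays. These 3 were not well above background on PFOS 4, nor were miR-207 and miR-764 on Control 2 and Control 3. On PFOS 4, 4 of the 70 member values (miR-466d, miR-485*, miR-207 and miR-764) stood at the lower limit set in the processing, so they give only an upper bound for that liver.

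**Figure D1:**
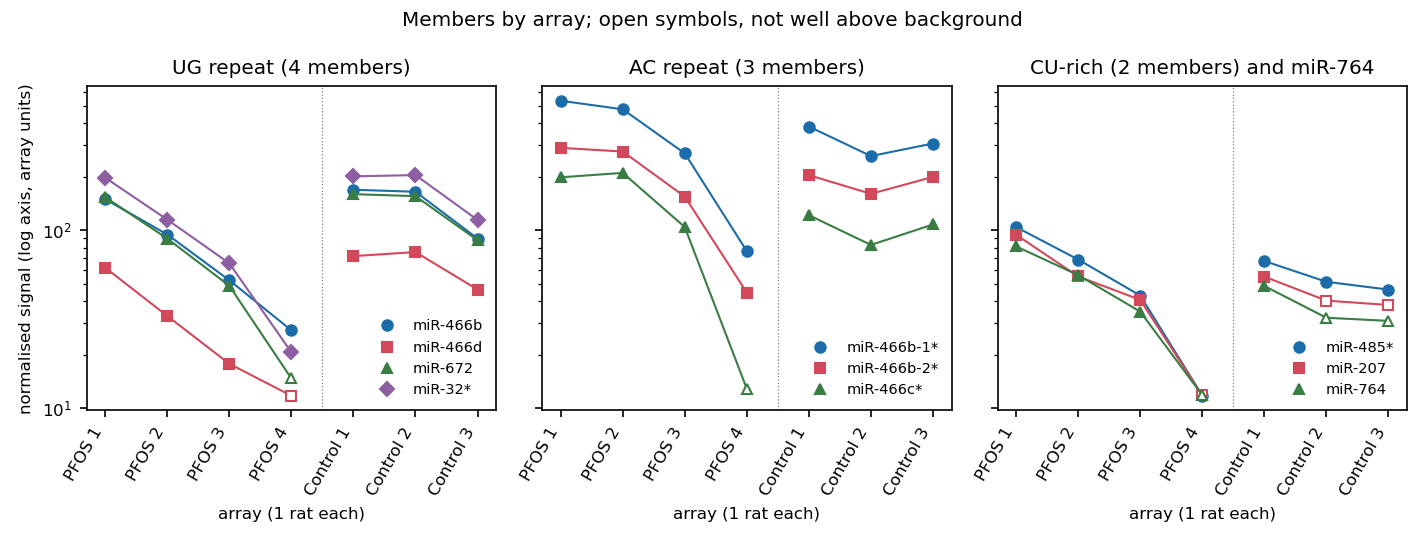
Normalised signal (log axis, array units) of the 10 members on the 4 PFOS arrays and the 3 Control arrays, in panels by shared repeat. Open symbols mark values not well above background, and lines join the arrays of 1 miRNA although arrays have no order. PFOS 4 is the lowest array for all 10 members, and the UG-repeat members are high on Control 2 where the AC-repeat members are low.

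All 10 members had their lowest signal on PFOS 4, against 31 of the 175 tested miRNAs (17.7%). The same held for 10 of 10 members in signals before normalization and in the deposited value table, and for 22 of their 22 probes. Relative to the mean of the other 3 PFOS arrays, the members stood at -3.66 to -1.49 log2 on PFOS 4 as normalised. For the 6 members not well above background there these differences are bounds, so the members are not ranked by them. Of all tested miRNAs, 13 lay more than 1 log2 lower there, and 10 of them were the members. The other 3 were let-7d*, at -1.61, miR-328a, at -1.50, and the muscle miRNA miR-206, at -1.21.

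The spread over the 7 arrays, as the SD of log2 signal, was 0.88 to 1.35 for the members, with a median of 0.98, against a median of 0.20 for tested non-members. The members held ranks 1 to 17 of 175 together with 7 non-members. Of these, miR-3584-5p was at rank 2 with 1.34, miR-200b at rank 5 with 1.17 and miR-139-3p at rank 6 with 1.15. The lowest of the 7 was miR-743a at rank 16 with 0.89, and miR-429 followed at rank 18 with 0.87. The order among members depended on the lower limit set for dim signals. With that limit at 1 in place of 12.1, the SD was 2.19 for miR-207, 1.83 for miR-485* and 1.72 for miR-764, against 0.92, 0.99 and 0.88 for the same 3 as reported, and it stayed at 1.35 for miR-466c*. At comparable mean signal, 72 non-members in the members' range had a median SD of 0.24, and 5 of them reached the lowest member SD. Within groups, the median SD of the members was 1.28 over PFOS arrays and 0.32 over Control arrays, and that of non-members was 0.18 over PFOS arrays and 0.16 over Control arrays. Without PFOS 4 the members' median SD over both groups was 0.54, and that of non-members was 0.20. With PFOS 4 left out before a new normalization, 4 members were among the 20 largest SDs, and the lowest-ranked member was at rank 38.

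**Figure D2:**
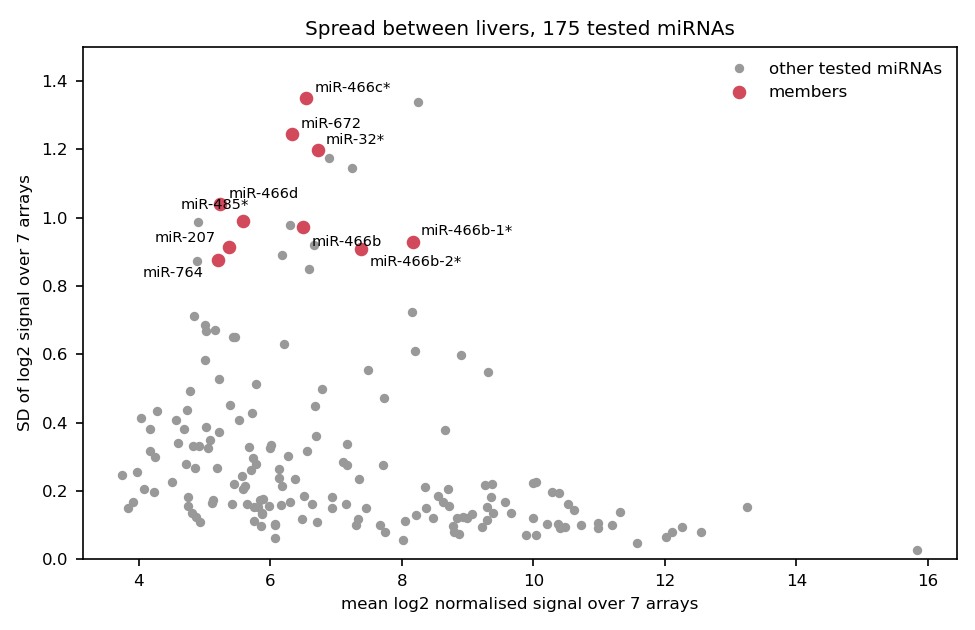
SD of log2 signal over the 7 arrays (vertical axis) against mean log2 signal (horizontal axis) for the 175 tested miRNAs, with the 10 members in red. The members have an SD of 0.88 to 1.35, while the median of the other tested miRNAs is 0.20.

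The probes of a member (2 each, and 4 for miR-466b-1*) were compared over the 7 arrays by their signals before scaling, without log2. Their r was at least 0.98 for every member, and it includes differences in brightness between arrays. The median CV over repeated spots was 10.3% for members and 8.57% for tested non-members, taken only where every kept spot of a probe was well above background. That left out the dimmest readings, since 119 of the 154 member readings (1 probe on 1 array) had a CV, and 7 of 22 on PFOS 4. Outlier flags were on 3.36% of the 1400 member spots and on 2.98% of other spots, and 0 member spots were saturated. On PFOS 4, 80 of the 195 member spots kept were well above background (41.0%), against 1043 of 1158 on the other 6 arrays (90.1%). The array measures compared did not place PFOS 4 at an extreme of all arrays for median signal or labelling. Its median signal before scaling was 244, within the 226 to 326 of the other PFOS arrays and above the 133 to 176 of the Control arrays. Its labelling spike-in was 3.83 on a log10 scale, against 3.82 to 4.03 on the other PFOS arrays and 3.54 to 3.56 on the Control arrays. Across the 7 arrays the members' mean profile had r of -0.36 with the number of detected miRNAs, -0.34 with median signal and 0.34 with the negative-control level.

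Co-variation set the UG-repeat members apart from the others. Within the UG-repeat members, Pearson r of log2 signal over the 7 arrays was 0.956 to 1.00 (median 0.984, 6 pairs). Within the AC-repeat members it was 0.991 to 0.995 (3 pairs), and miR-485* and miR-207 had 0.993. Between UG-repeat and AC-repeat members it was 0.64 to 0.86, with a median of 0.81 over 12 pairs. Between the AC-repeat members and the CU-rich pair it was 0.952 to 0.984 over 6 pairs, so these were hardly divided. Points in each pair share the same 7 arrays, and all pairs share the low PFOS 4 value.

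Leaving PFOS 4 out separated the UG-repeat members from the AC-repeat members. Over the other 6 arrays, r stayed at 0.967 to 0.999 within the UG-repeat members and at 0.948 to 0.973 within the AC-repeat members. Between these groups it was -0.08 to 0.36, with a median of 0.24. The CU-rich pair kept 0.785 to 0.913 with the AC-repeat members and had 0.30 to 0.61 with the UG-repeat members. miR-764, without a sequence here, had 0.963 and 0.977 with the CU-rich pair. Spearman's rho, which does not weigh how far PFOS 4 lies, had a median of 0.96 within the UG-repeat members, 0.96 within the AC-repeat members and 0.45 between them. Another measure left out, pair by pair, the 2 arrays farthest from the median of the pair's first-listed member. The arrays left out could thus differ between pairs. By this measure r was 0.906 to 0.999 within the UG-repeat members, 0.925 to 0.957 within the AC-repeat members and -0.30 to 0.27 between them.

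Over all 45 pairs of members the median r was 0.910, and 0.603 without PFOS 4. Pairs of tested non-members had a median of -0.01, and 0.273% of them reached 0.95. Mean profiles, centred on each member's own mean, show where the groups parted. The UG-repeat profile was 0.82, 0.04, -0.82 and -2.05 log2 on PFOS arrays 1 to 4, against 0.94, 0.94 and 0.14 on Control arrays. The AC-repeat profile was 0.93, 0.88, -0.01 and -2.22 on PFOS arrays, against 0.36, -0.12 and 0.19 on Control arrays. The profiles thus lay far apart on PFOS 2, PFOS 3, Control 1 and Control 2, and close together on PFOS 1, PFOS 4 and Control 3.

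**Figure D3:**
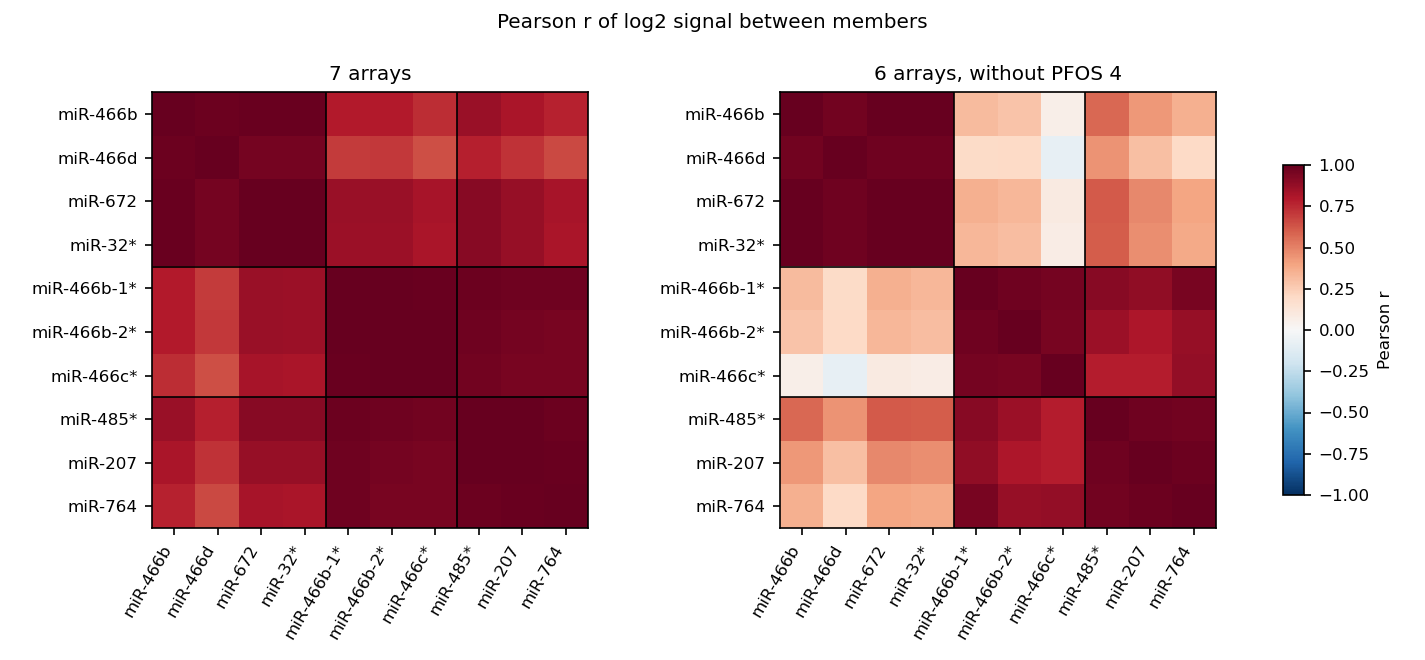
Pearson r of log2 signal between the 10 members over 7 arrays (left) and over 6 arrays without PFOS 4 (right), with lines between the UG-repeat members, the AC-repeat members, and the CU-rich pair with miR-764. Without PFOS 4 the blocks within groups stay dark red, at 0.948 to 0.999 within the UG-repeat and AC-repeat blocks, while the block between those groups lies between -0.08 and 0.36.

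Similar sequences could bind each other's probes. Members with a shared run were read by separate probes, but whether these probes also read the other members was not tested. Sequences with a related repeat outside the group did not all behave alike. miR-206, the single tested non-member with GUGUGU, had an SD of 0.99 and r of 0.935 with the UG-repeat profile. Its signals were 59.4, 26.0, 14.1 and 12.0 on PFOS arrays, against 59.1, 56.1 and 23.6 on Control arrays, and it was not well above background on PFOS 4 and Control 3. miR-362*, the single tested non-member with ACACAC, had an SD of 0.16, and miR-296*, which holds CUCUCC, had 0.34 with its lowest signal on PFOS 2. The other miR-466 family sequence with a UG run, miR-466c, was detected on 0 arrays.

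PFOS livers had lower mean signals than Control livers for the UG-repeat members, by more than 1 log2 each, but the difference was within the spread between livers. miR-466d had geometric means of 25.6 in PFOS livers and 63.1 in Control livers, and its log2 fold change was -1.30 with an SE of 0.57 (n = 4 PFOS and 3 Control arrays, limma adjusted p = 0.289). For miR-672 the geometric means were 56.1 in PFOS livers and 129.7 in Control livers, which gave -1.21 log2 with an SE of 0.78 (limma adjusted p = 0.475). Over all tested miRNAs, 0 of 175 passed an adjusted p of 0.05 in limma (0%), the smallest being 0.126, so the members' 0 of 10 is the count for the whole array. With no adjustment, 0 members and 33 of 175 tested miRNAs (18.9%) had p under 0.05.

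The log2 fold change of miR-32* was -1.17 (SE 0.75), from 74.3 in PFOS livers and 167 in Control livers, and that of miR-466b was -1.01 (SE 0.59), from 67.1 in PFOS livers and 136 in Control livers. These 4 were the only tested miRNAs below -1 (2.29% of 175). The other 6 members lay between -0.32 for miR-485* and 0.02 for miR-764, with SEs of 0.64 to 0.99, the AC-repeat members at -0.28 to -0.22. Of the 10 members 9 were negative, against 57.7% of tested miRNAs, and the median was -0.30 for members and -0.03 for all tested. After the loess, the lower limit itself stood at -0.17 log2, PFOS minus Control, near the -0.14 of miR-207. Scaled without loess, miR-207 was at -0.03, and 9 members were still negative. The part of this offset in the small differences was not tested. The median SE was 0.67 for members and 0.14 for all tested. In 0 of 10 members did the PFOS and Control ranges stand apart, against 20.6% of tested miRNAs.

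The array PFOS 4 set the sign of 5 of the other 6 members, miR-764 being at 0.02 with it. Without PFOS 4, log2 fold changes were -0.98 for miR-466d, -0.62 for miR-466b, -0.61 for miR-672 and -0.59 for miR-32*. For the other 6 they were positive, at 0.39 for miR-466b-1*, 0.29 for miR-466b-2*, 0.63 for miR-466c*, 0.27 for miR-485*, 0.40 for miR-207 and 0.53 for miR-764. The UG-repeat members stayed negative with any 1 array left out, with miR-466d between -1.69 and -0.98. None of these fits gave a member an adjusted p below 0.05 in limma.

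Slide position moved with the values as well. The first slide row held PFOS 1, PFOS 2 and Control 1, and the second held PFOS 3, PFOS 4, Control 2 and Control 3. Within the first row, PFOS minus Control was -0.67 log2 for miR-466d, -0.51 for miR-466b, -0.44 for miR-672 and -0.42 for miR-32*. Within the second row it was -2.03, -1.68, -2.13 and -2.06 for the same 4. For the other 6 members it was 0.33 to 0.75 within the first row and -1.37 to -0.63 within the second, so their sign differed between rows. With slide row as a block all 10 were negative, and the smallest limma adjusted p of a member was 0.161. The part of slide row in these values was not tested.

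**Figure D4:**
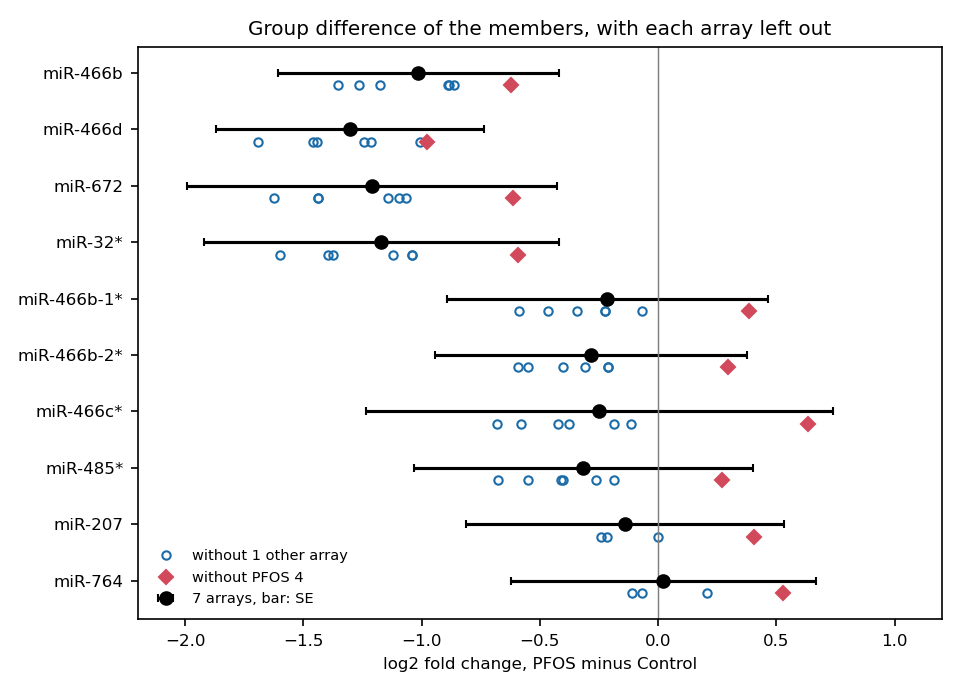
Log2 fold change of PFOS minus Control for the 10 members, with all 7 arrays (black, bar 1 SE), without PFOS 4 (red diamonds) and without each other array in turn (open circles). Without PFOS 4 the 4 UG-repeat members lie at -0.98 to -0.59 and the other 6 at 0.27 to 0.63. For miR-207 and miR-764 fits without PFOS 1, 2 or 3 are not drawn, since they then missed the detection filter.

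The sign of the smaller differences also followed the scaling. Without normalization the median of all tested miRNAs stood at 0.69 log2, PFOS minus Control, the UG-repeat members at -0.48 to -0.26 and the other 6 at 0.42 to 0.80. With each array scaled to its 75th percentile over all miRNAs, that median was 0.25, and the UG-repeat members were at -0.97 to -0.71 and the other 6 at -0.09 to 0.26. The UG-repeat members stood below those medians under both. In the deposited value table, from which no background was subtracted, the UG-repeat members were at -0.52 to -0.24 and the others at -0.13 to 0.08. With cyclic loess giving equal weight to undetected miRNAs, miR-466b turned to 1.31 and miR-32* to 0.73. With the lower limit at 1, miR-485* was at -0.87, miR-207 at -0.97 and miR-764 at -0.55.

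The other arms of the members' hairpins were mostly not seen. miR-466c, miR-485, miR-672* and miR-764* were detected on 0 of 7 arrays. miR-32, the arm opposite miR-32*, was detected on PFOS 2, PFOS 3 and PFOS 4 and on 0 Control arrays. Its signals were 14.4, 24.7, 20.2 and 30.9 on PFOS arrays, against 21.8, 14.0 and 15.4 on Control arrays. It was highest on PFOS 4, the array on which miR-32* was lowest, though these signals were dim. Before scaling, miR-32 was nearly level on PFOS 2, PFOS 3 and PFOS 4, at 36.0, 35.1 and 38.7. On every array except PFOS 4, miR-32 was dimmer than miR-32*. These arms were read by different probes, so their signals do not rank their amounts. Both arms of miR-466b were detected on all 7 arrays and were lowest on PFOS 4.

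Neighbouring genes gave little signal. Of the 19 listed Dlk1-Dio3 miRNAs on the array apart from miR-485*, 16 were detected on 0 arrays, and the 1 that was tested, miR-494, had a log2 fold change of -0.32 (SE 0.18). Of the 9 names listed for the miR-466 family and its relatives, 7 were on the array, and the 5 that were tested are members. Among neuronal miRNAs, 5 of 7 on the array were detected on 0 arrays, and the summed signal was 82.5 to 122 on PFOS arrays (108 on PFOS 4) and 98.1 to 118 on Control arrays. Among muscle miRNAs, 4 of 5 were detected on 0 arrays, miR-206 was the tested one, and the summed signal was 57.6 to 118 on PFOS arrays (59.7 on PFOS 4) and 70.3 to 120.0 on Control arrays. Both sums count undetected miRNAs, most of which stood at or near the lower limit of 12.1, so much of each sum is that limit. Before scaling, the highest signal of an undetected muscle miRNA was 13.8, for miR-1. On PFOS 4, miR-206 was also not well above background. The part of other cell types in the members' spread was not tested.

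The non-members most like the group, ranked by r with the members' mean profile over the 7 arrays, were let-7d* (0.965), miR-328a (0.959), miR-1188-3p (0.949), miR-500 (0.940) and miR-652 (0.901). These 5 of 165 reached 0.9, and miR-206 (0.821), miR-3588 (0.801), miR-378* (0.751), miR-196c (0.742) and miR-146a (0.671) came next. let-7d* had signals of 51.9, 36.3, 27.0 and 12.2 on PFOS arrays, against 40.4, 33.0 and 42.9 on Control arrays. Without PFOS 4 its r was 0.807, and that of miR-328a was 0.853. miR-1188-3p, miR-500 and miR-652 were nearer to the UG-repeat profile (0.981, 0.962 and 0.976) than to the AC-repeat profile (0.815, 0.810 and 0.753), but their SDs were 0.44, 0.33 and 0.26, below those of the members.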

How the data were processed

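Per the labels, 1 liver RNA per array was hybridised, and groups were taken from sample titles. Spot intensity values were made by Agilent Feature Extraction 10.7.3.1, per the file headers, from 1-colour arrays that shared 1 slide and 1 scan time. The processed signal used is background-subtracted and detrended but not normalized between arrays. The deposited value table gives log2 signals after the authors' cyclic lowess, per the labels. Its columns followed the log2 median pixel signal without background subtraction (r across miRNAs 0.9987 to 0.9999), their medians were 5.48 to 5.51, miRNAs were not centred, its direction is that of signal, and the settings of that lowess are not known here.

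Spots without outlier flags were averaged per probe, and probes were summed per miRNA. Arrays were scaled to the 75th percentile of the miRNAs detected on all arrays. Signals were raised to a floor of 12.1 (percentile 1 of the detected ones) and put on the log2 scale. They then went through limma's cyclic loess (span 0.7, 3 iterations), in which miRNAs missing on any array had weight 0. A miRNA counted as detected where over 50% of the kept spots of a probe were well above background, and was tested if detected on all 3 Control or at least 3 PFOS arrays. The groups were fitted with lmFit and eBayes across 175 miRNAs (limma 3.58.1, R 4.3.3, Benjamini-Hochberg adjustment, threshold 0.05, 6.52 degrees of freedom). The fit and the co-variation measure were run on simulated data with planted effects. This checked the calculation only, not the results for these arrays. Files were read with the package data.table (version 1.17.8), and figures were drawn with matplotlib 3.10.9.

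Members, lists and alternatives were chosen with earlier results of these data known, and ACACAC was added as a search after the values had been seen. Named non-members were the other arms, the listed miRNAs, the tested carriers of a searched run and the 10 most like the members' mean profile. Also named were some non-members among or next to the members in SD, and those more than 1 log2 lower on PFOS 4. The last kind was chosen after the values were seen. Array names were matched to RefSeq arms by name. Alternatives changed the normalization, signal column, summary, filter, floor, moderation and slide row, and left out each array.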

Additional observations from a re-analysis of the deposited data

How the results depend on the processing

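Of 175 tested miRNAs 0 passed in the reported limma fit, and under every alternative run 0 members passed. The count of all tested miRNAs past the threshold was 3 with the 75th percentile over all miRNAs, 53 without normalization, 6 with normexp, 6 with the median pixel signal, 1 with the gene signal of Feature Extraction, 9 in the deposited table, 1 without the detection filter and 4 with slide row as a block, and the cause was not tested. With any 1 array left out it was 0. The median r over pairs of members, 0.910 as reported, was 0.0217 with equal-weight loess, where 2 members stayed lowest on PFOS 4, and 0.805 in the deposited table. It was 0.552 to 0.954 with 1 array left out, the lowest without PFOS 4 after a new normalization. In the other settings with all arrays it was 0.842 to 0.926. A member's fold change counted as moved only if it shifted by at least that member's pooled SD within groups. A change of sign could thus count as unmoved, as for miR-466b-1*, at -0.22 as reported and 0.46 without normalization. By that wide limit, 241 of the members' fold changes under alternatives stayed and 7 moved, 4 of them with equal-weight loess. Outside that setting all 10 members were lowest on PFOS 4 in each setting that kept it.

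Without PFOS 1, 2 or 3, miR-207 and miR-764 missed the filter. With 4 and 3 livers, precision is limited by the number of arrays, and signals of 6 members on PFOS 4 are not well above background. No paired analysis was possible because the labels give no replicate numbers shared between groups.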
